A study of Mus musculus with 36 samples.

Results

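Interferon-stimulated genes are the genes that cells switch on when they sense interferon, and 33 of them were followed here through the visceral white adipose tissue (visWAT, the epididymal depot) and liver of lean and obese mice with or without Mlkl in their adipocytes. The 33 were chosen by name, and each name matched 1 of the 56748 genes of the expression table. The genotypes were as follows. MlklAdi-KO mice carried a floxed Mlkl allele and an AdipoCre transgene, whose Cre acts in mature adipocytes, while WT mice were their floxed littermates without Cre, so both genotypes carried the floxed allele. All were male C57BL/6J mice, 16 weeks old at the start, and received normal chow (NCD) or HFD, the high-fat feed, during 16 weeks. The tissues of 4 mice per genotype on NCD and of 5 per genotype on HFD were sequenced, each mouse giving 1 visWAT and 1 liver library, which makes 36 libraries of 18 mice. A library is 1 mouse, and mice are the replicates throughout. Since both tissues are mixtures, fewer cells of a type and less RNA per cell cannot be told apart.

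Type I interferons bind the receptor pair IFNAR1 and IFNAR2, which activates the kinases JAK1 and TYK2. These phosphorylate STAT2, which with IRF9 belongs to the factor ISGF3, and ISGF3 binds a DNA element called the interferon-stimulated response element (ISRE) before its target genes. Interferon gamma uses a separate receptor and a DNA element called the gamma-activated site (GAS), and several genes, among them the guanylate-binding proteins, answer to both. The products of these genes recognise foreign RNA, degrade or trap it, hold virus particles at the membrane, or tune the pathway itself. In adipose tissue and liver, resident and recruited macrophages as well as adipocytes and hepatocytes can express them.

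By role, the 33 genes comprised 4 IFIT proteins that bind foreign RNA (Ifit1, Ifit2, Ifit3, Ifit3b), 5 oligoadenylate synthetases and relatives (Oas1a, Oas2, Oas3, Oasl1, Oasl2), 5 large GTPases (Mx1, Mx2, Gbp2, Gbp3, Gbp7), 3 transcription factors (Irf7, Irf9, Stat2), the ubiquitin-like modifier Isg15 with its protease Usp18, 2 RNA sensors (Ifih1, Dhx58), 3 genes of ADP-ribosylation and its partner ubiquitin ligase (Parp9, Parp14, Dtx3l), 2 nucleotide enzymes (Rsad2, Cmpk2), and 7 others (Bst2, Ifi27l2a, Ifi35, Ifi44, Rtp4, Xaf1, Trim30a). They lay on 13 chromosomes of the mm39 build, 4 Ifit genes on chromosome 19, 5 Oas genes on chromosome 5, and Gbp2, Gbp3 and Gbp7 close together on chromosome 3. Reads of near-identical relatives (Ifit3 and Ifit3b, Oas1a and its paralogs, the Gbp genes, Trim30a, Ifi27l2a) may have been split by the counting, so the division between such genes is uncertain. Levels are given in FPKM, fragments scaled by gene length and by the library size the authors chose, as deposited.

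The ISRE could be read in the promoters. Promoters of the RefSeq table (GRCm38.p6), 250 bases before and 50 after a gene start, were matched by symbol for 24 of the 33 genes. The letters GAAANNGAAA, searched on both strands, were found in 14 of these 24 (58.3%), against 3.99% of the 27025 genes with a promoter. The GAS letters TTCNNNGAA were found in 5 (20.8%), against 9.55%. The first 4 promoters shown are those of the genes that hold the ISRE letters and had the smallest p in the comparison of the tissues, which called most of the 33. That of Oas1a, the gene with the largest diet difference among those tested in WT visWAT, was added after its values were seen. Each is written 5′ to 3′ in the gene's direction with the ISRE letters, on either strand, in capitals, and ends before the gene start of the expression table, except that of Gbp2, which runs to the end of its motif and 12 bases into the gene. Each had 1 exact match in GRCm39.
Bst2: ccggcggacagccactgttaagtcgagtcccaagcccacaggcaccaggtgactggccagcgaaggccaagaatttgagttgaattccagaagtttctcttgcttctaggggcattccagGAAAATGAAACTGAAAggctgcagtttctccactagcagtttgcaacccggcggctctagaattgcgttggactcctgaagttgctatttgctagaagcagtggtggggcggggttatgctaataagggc
Gbp2: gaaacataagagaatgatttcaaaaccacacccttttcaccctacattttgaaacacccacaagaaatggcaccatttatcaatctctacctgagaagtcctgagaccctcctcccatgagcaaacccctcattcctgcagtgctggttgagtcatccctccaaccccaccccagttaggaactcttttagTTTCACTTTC
Stat2: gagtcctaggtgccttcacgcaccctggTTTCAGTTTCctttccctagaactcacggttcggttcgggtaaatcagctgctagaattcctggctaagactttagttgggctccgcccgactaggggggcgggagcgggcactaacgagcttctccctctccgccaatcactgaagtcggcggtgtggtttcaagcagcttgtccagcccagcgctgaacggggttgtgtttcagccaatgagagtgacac
Gbp3: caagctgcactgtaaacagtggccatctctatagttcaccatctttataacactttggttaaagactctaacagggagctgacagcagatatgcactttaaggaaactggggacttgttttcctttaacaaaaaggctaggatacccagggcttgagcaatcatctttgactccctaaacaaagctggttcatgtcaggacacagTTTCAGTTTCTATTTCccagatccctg
Oas1a: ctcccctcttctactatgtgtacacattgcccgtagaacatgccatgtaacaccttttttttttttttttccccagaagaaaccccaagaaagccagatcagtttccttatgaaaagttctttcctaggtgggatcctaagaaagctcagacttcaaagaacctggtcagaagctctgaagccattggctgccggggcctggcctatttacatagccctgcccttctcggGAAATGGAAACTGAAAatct

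The Bst2 sequence lies on the minus strand at chr8:71990117-71990366 and holds 2 overlapping matches. Gbp2 is on the plus strand at chr3:142326174-142326374 with 1 match, Gbp3 on the plus strand at chr3:142265555-142265786 with 2, Stat2 on the plus strand at chr10:128106117-128106366 with 1, and Oas1a on the minus strand at chr5:121045589-121045838 with 2. In Bst2, Gbp3 and Oas1a the matches run into each other, and in Oas1a they begin 24 bases before the gene start. A match is a description of the letters, and factor binding was not measured. Of these 4 genes that hold the element, Bst2 and Stat2 were higher in liver, and Gbp2 and Gbp3 in visWAT.

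Each library held 20875463 to 30322171 reads on genes (median 23546027). Mlkl in visWAT was 4.58 to 6.28 FPKM in WT and 2.32 to 2.72 in MlklAdi-KO mice on HFD, and 1.96 to 2.49 in MlklAdi-KO mice on NCD. Of the WT mice on NCD 3 had 3.91 to 5.11, but the library labelled mouse 182 had 2.29, inside the MlklAdi-KO range. The visWAT library of WT mouse 183 on NCD also stood apart, with 18.5% of its reads on genes of the seminal vesicle and epididymis. Its FPKM values summed to 564718, against 243503 to 309820 in the other WT visWAT libraries on NCD. The counts of called genes that rest on WT visWAT on NCD are therefore given with and without both mice, except for the comparison of the tissues. The count of that comparison with both left out is not given. The values of upstream genes and markers are given with both mice only. Adipocyte markers summed to 3970 to 7900 FPKM in visWAT and hepatocyte markers to 40100 to 65100 in liver, as the labels say. Hepatocyte markers reached 759 FPKM in the visWAT of MlklAdi-KO mouse 156 on HFD and at most 105 in the other visWAT libraries. The liver library of WT mouse 182 on NCD also lay far from its group. Its reads differed from theirs by a chi-square per gene of 107 to 123, against 12.1 to 20.7 among the others. It was kept in the WT liver comparisons, and no WT liver diet call was lost without it.

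In both tissues these genes were expressed at low to moderate levels, with Ifi27l2a, which encodes a small hydrophobic protein, as the exception. Ifi27l2a had a median of 1560 FPKM over the 18 visWAT libraries (range 160 to 2530) and of 5.99 in liver (2.51 to 10.6), a 260-fold difference of the medians. In the visWAT of WT mice on NCD it made up 82.7% of the summed level of the 33 genes. Bst2, which encodes tetherin, the protein that holds virus particles at the membrane, was the most abundant of them in liver, with a median of 192 FPKM against 56.3 in visWAT. At the other end Oas3 had a median of 0.160 FPKM in visWAT and 0.0921 in liver, and Ifi44 of 0.320 and 0.493.

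**Figure D1:**
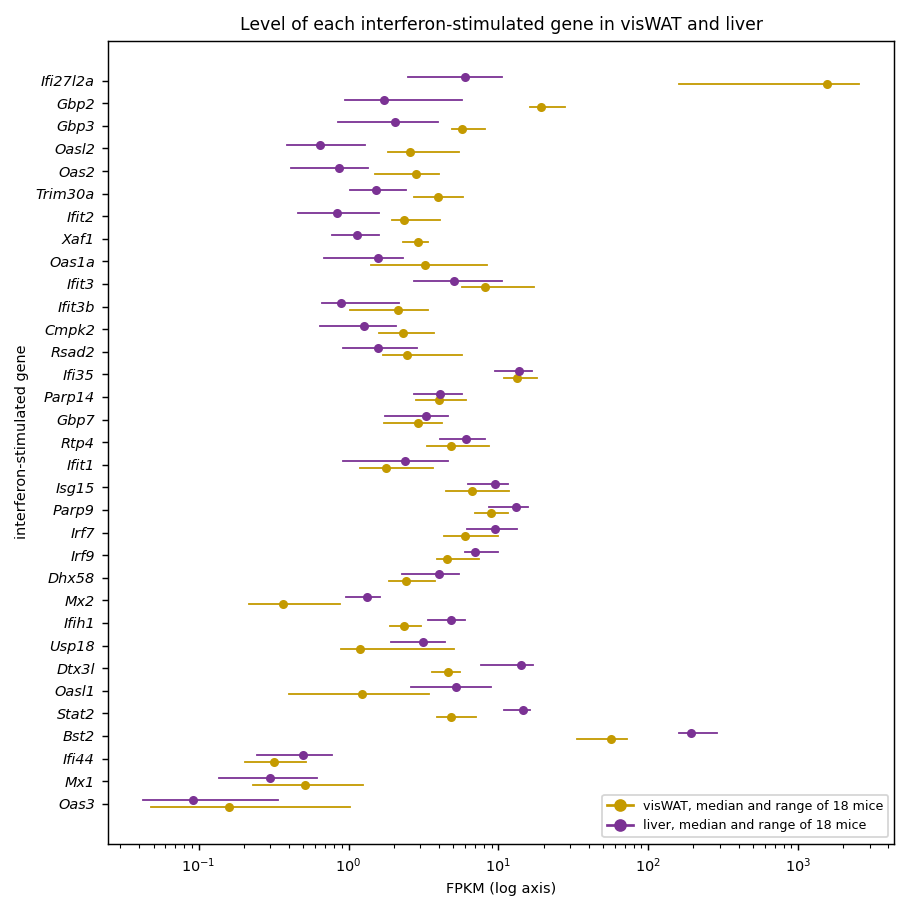
Level of each of the 33 genes in visWAT and liver, as the median (point) and range (bar) of 18 mice per tissue on a logarithmic FPKM axis. The Ifi27l2a ranges lie far apart (160 to 2530 FPKM in visWAT, 2.51 to 10.6 in liver), Bst2 and Stat2 lie higher in liver, and most other ranges overlap.

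Every visWAT library exceeded every liver library for 8 genes (Ifit2, Oas2, Oasl2, Ifi27l2a, Xaf1, Trim30a, Gbp2 and Gbp3), every liver library exceeded every visWAT library for 5 (Mx2, Stat2, Ifih1, Bst2 and Dtx3l), and the tissues overlapped for 20. The medians of the guanylate-binding protein gene Gbp2 were 19.4 FPKM in visWAT and 1.72 in liver, an 11.3-fold difference. Stat2, the signal transducer, had 14.6 FPKM in liver and 4.81 in visWAT. Dtx3l, the ubiquitin ligase that pairs with Parp9, had 14.1 and 4.61, and the liver medians of Mx2 and Oasl1 were 3.62 and 4.25 times those of visWAT. With limma on log2(FPKM + 1), 13 of the 30 genes tested were higher in visWAT (43.4% of all genes) and 14 in liver (45.4%) at an adjusted p under 0.05, so the shares resembled those of all genes. Oas3, Mx1 and Ifi44 did not pass the filter of a mean of 0.5 FPKM. Of the 14 liver calls, 7 changed side with the scaling: with every library rescaled to the same FPKM sum, which put the median of all genes at 0.70 on the log2 scale towards visWAT, Isg15, Ifit1, Irf7, Irf9, Dhx58, Parp9 and Rtp4 were higher in visWAT, and the split was 23 to 5. Ifih1 and Usp18 lost their liver calls under it as well (-0.004 and -0.15 on the log2 scale). Macrophage markers also differed between the tissues, 7 of 7 being higher in visWAT, whereas 3 of 3 Kupffer cell markers were higher in liver.

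Under HFD, the visWAT of WT mice had more RNA of the oligoadenylate synthetase family. These enzymes make the short oligoadenylates that activate RNase L, and Oasl1 and Oasl2 are relatives of them. All 4 members tested were higher than on NCD, with a median log2 difference of 0.76, while 0 of 4 IFIT genes, 0 of 4 large GTPases and 0 of 3 transcription factors passed the test. Members of these families were called in other settings, however. Without mouse 183 Ifit3b, Mx1, Irf9 and Ifi35 were added, for 10 calls. With equal FPKM sums Ifit3, Ifit3b, Mx1, Irf9, Ifi27l2a, Bst2 and Ifi35 were added, for 14. That scaling also raised the median of all genes, and the FPKM sum of mouse 183 was the largest, as given above. The shares of all genes called in the alternative settings of this comparison are not given here. Besides the Oas family, Trim30a, a TRIM family protein, the RNA sensor Dhx58 and the ADP-ribosyltransferase Parp14 were higher. In total 7 of 30 genes rose, which is 23.3% against 21.9% of all genes tested, and 0 fell, against 15.8%. The median difference of the 30 genes was 0.14 and that of all genes -0.01.

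Values per mouse follow the order of mice 165, 180, 182 and 183 for WT and 166, 179, 197 and 199 for MlklAdi-KO mice on NCD, and of mice 154, 155, 161, 162 and 164 for WT and 151, 152, 153, 156 and 157 for MlklAdi-KO mice on HFD. In WT visWAT, Oas1a was 1.40, 1.67, 1.70 and 2.55 FPKM on NCD and 4.51, 7.32, 6.88, 8.44 and 7.87 on HFD. The lowest HFD mouse lay above the highest NCD mouse, and the means were 1.83 ± 0.496 (SD, n = 4) and 7.01 ± 1.51 (SD, n = 5), a 3.83-fold difference (log2 1.49 ± 0.17 SE, adjusted p = 0.000115). In MlklAdi-KO mice Oas1a was 1.64, 1.42, 1.59 and 1.81 on NCD and 4.68, 6.44, 6.16, 2.95 and 3.55 on HFD. Again the diets did not overlap (log2 1.10 ± 0.18 SE, adjusted p = 0.00178), but mice 156 and 157 lay well below the other three.

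Oasl1, a negative regulator of Irf7 translation, was 0.399, 1.06, 0.665 and 1.67 FPKM in WT mice on NCD and 1.40, 2.76, 2.53, 2.26 and 3.43 on HFD. One HFD mouse, 154, lay within the NCD range (log2 0.85 ± 0.21 SE, adjusted p = 0.0124). Oasl2 was 2.33, 1.84, 2.01 and 2.93 on NCD and 3.39, 4.20, 3.29, 4.73 and 5.43 on HFD, without overlap (log2 0.66 ± 0.14 SE, adjusted p = 0.00531). In MlklAdi-KO mice Oasl1 was 0.503, 0.449, 0.586 and 0.476 on NCD and 1.89, 2.54, 2.81, 0.780 and 0.895 on HFD, so that it rose (log2 0.82 ± 0.23 SE, adjusted p = 0.018) with mice 156 and 157 lowest once more. Oasl2 in MlklAdi-KO mice was 2.49, 1.94, 2.18 and 2.19 on NCD and 2.67, 3.76, 3.35, 2.38 and 2.06 on HFD, which overlapped and did not pass the test.

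Oas2 was 2.46, 2.40, 2.11 and 2.81 FPKM on NCD and 2.80, 3.43, 2.88, 4.01 and 4.04 on HFD in WT visWAT, where only mouse 154 reached into the NCD range (log2 0.36 ± 0.11 SE, adjusted p = 0.0261). In MlklAdi-KO mice it was 2.23, 1.499, 2.41 and 1.95 on NCD and 3.14, 2.87, 2.98, 3.10 and 2.98 on HFD. These did not overlap (log2 0.42 ± 0.09 SE, adjusted p = 0.00456). Oas3 was below the filter, with means of 0.111 and 0.520 FPKM in WT and of 0.0839 and 0.246 in MlklAdi-KO mice on NCD and HFD, and was not tested.

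Trim30a in WT mice was 3.75, 4.09, 3.14 and 3.13 FPKM on NCD and 4.46, 4.93, 5.09, 5.52 and 5.80 on HFD, without overlap (log2 0.45 ± 0.09 SE, adjusted p = 0.00399). Dhx58 was 2.17, 1.87, 2.22 and 2.03 on NCD and 2.31, 2.74, 2.66, 3.76 and 3.50 on HFD, also without overlap (log2 0.37 ± 0.11 SE, adjusted p = 0.0262). Parp14 was 4.05, 3.95, 2.80 and 3.24 on NCD and 4.12, 4.07, 4.58, 5.29 and 6.06 on HFD, where the lowest HFD mouse lay just above the highest NCD mouse (log2 0.37 ± 0.12 SE, adjusted p = 0.0434). The calls of Oas1a, Oasl1, Oasl2 and Trim30a were kept in all 17 alternative settings and mouse omissions that were run. That of Oas2 was lost without any one of mice 165, 180, 182, 155, 162 and 164, that of Dhx58 without 180, 162 or 164, and that of Parp14 without 180, 182, 183, 161, 162 or 164, and 4 calls were left without WT mouse 180 or without WT mouse 164. Without both mice 182 and 183 the count was again 7 (6 higher and 1 lower), with Dhx58 and Parp14 lost, Ifi27l2a gained as higher and Gbp7 as lower.

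**Figure D2:**
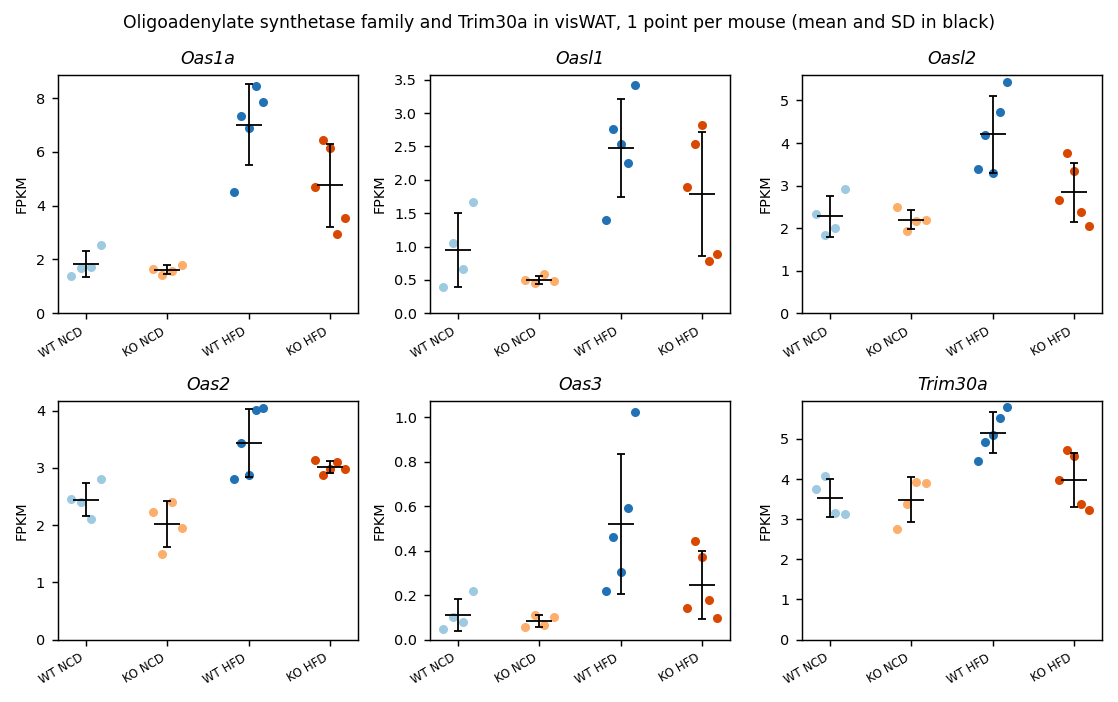
FPKM of Oas1a, Oasl1, Oasl2, Oas2, Oas3 and Trim30a in visWAT by genotype and diet, with 1 point per mouse and the mean and SD of each group. In WT mice the HFD points of Oas1a (4.51 to 8.44) lie above all NCD points (1.40 to 2.55), and in MlklAdi-KO mice 2 of the 5 HFD points lie low (2.95 and 3.55).

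In the visWAT of MlklAdi-KO mice 9 of 30 genes were higher on HFD (30%, against 23.3% of all genes) and 4 were lower (13.3%, against 20.3%). Beside Oas1a, Oasl1 and Oas2, these were Ifi27l2a, Bst2, Ifit3, Ifit3b, Isg15 and Ifi35. The 4 that fell were Gbp7 and Gbp3, the antiviral radical enzyme Rsad2 (viperin) and the RNA sensor Ifih1 (MDA5).

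Ifi27l2a was 1185, 1106, 1082 and 916.3 FPKM in MlklAdi-KO mice on NCD and 2532, 1917, 1579, 1923 and 2384 on HFD, without overlap, and the means were 1072 ± 113 (SD, n = 4) and 2067 ± 387 (SD, n = 5; log2 0.93 ± 0.16 SE, adjusted p = 0.00175). In WT mice it was 995.5, 1328, 160.0 and 936.8 on NCD and 1539, 1620, 1796, 1618 and 1658 on HFD. The diets did not overlap there either, but mouse 182 lay far below its group and the difference did not pass (log2 1.30 ± 0.54 SE, adjusted p = 0.0865). These calls depended on the fit. With all 4 groups of the tissue in it, Ifi27l2a was called in WT and no longer in MlklAdi-KO mice, where the calls of Ifit3, Isg15, Rsad2 and Gbp3 were lost too. With no filter on low values the MlklAdi-KO call was also lost, and without mouse 182 or with equal FPKM sums Ifi27l2a was called in WT mice.

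Bst2 was 37.6, 40.3, 44.5 and 44.6 FPKM in MlklAdi-KO mice on NCD and 65.3, 59.1, 59.1, 72.1 and 58.9 on HFD, without overlap (log2 0.58 ± 0.09 SE, adjusted p = 0.00103). In WT mice it was 48.0, 51.3, 33.3 and 55.1 on NCD and 44.1, 64.3, 57.5, 70.5 and 60.6 on HFD, where mouse 154 lay within the NCD range and the difference did not pass. Ifit3b was 1.495, 1.03, 1.60 and 2.05 on NCD and 2.37, 2.37, 2.04, 2.39 and 3.05 on HFD in MlklAdi-KO mice, overlapping slightly (log2 0.45 ± 0.12 SE, adjusted p = 0.0159). Isg15, the ubiquitin-like modifier, was 4.86, 4.44, 5.10 and 6.04 on NCD and 7.10, 6.78, 5.83, 7.33 and 6.82 on HFD, where mouse 153 lay below the highest NCD mouse (log2 0.35 ± 0.09 SE, adjusted p = 0.00986).

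Gbp7 fell in the visWAT of MlklAdi-KO mice from 2.90, 3.43, 3.53 and 3.70 FPKM on NCD to 2.33, 2.32, 2.09, 2.92 and 2.43 on HFD (log2 -0.36 ± 0.08 SE, adjusted p = 0.00678). Only mouse 156 reached the NCD range. Ifi35 (log2 0.34) and Ifit3 (0.33) were higher and Rsad2 (-0.29), Ifih1 (-0.23) and Gbp3 (-0.17) lower by smaller amounts. The calls of Gbp3 and Ifi35 were each lost on leaving out any one of 7 mice, and that of Ifih1 without mouse 197, 199 or 152. The remaining 17 of the 30 genes were not called, and Oas3, Mx2 and Ifi44 were not tested.

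Macrophage markers moved with the same contrast. Their summed level was 170 to 265 FPKM in WT and 230 to 401 in MlklAdi-KO visWAT on NCD, and 1510, 2130, 1990, 1550 and 1740 in WT and 1220, 1850, 1960, 636 and 600 in MlklAdi-KO mice on HFD. MlklAdi-KO mice 156 and 157, lowest for Oas1a and Oasl1, were thus also lowest for these markers. On HFD 7 of 7 macrophage markers were higher in WT visWAT (median log2 difference 2.79) and 6 of 7 in MlklAdi-KO visWAT (1.71). The part of the macrophages in the Oas changes was not tested.

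The upstream genes of the pathway gave a further view of WT visWAT. None of the 21 interferon genes passed the filter, and Ifng was at most 0.123 FPKM in WT visWAT. Among all genes tested 21.9% rose and 15.8% fell in WT visWAT. Of the receptor genes 4 of 5 rose on HFD, Il10rb (log2 1.20), Ifngr2 (1.11), Ifnar2 (0.57) and Ifnar1 (0.42). Of the kinases and inhibitors 3 of 7 rose, Tyk2 (0.54), Jak1 (0.49) and Socs3 (0.48). Of the sensors and adaptors 10 of 16 rose, led by the endosomal RNA receptor Tlr7 (1.55), Aim2 (1.12), the dNTPase Samhd1 (1.09) and Sting1 (0.73), and Mavs fell by 0.31. Of the genes driven mainly by interferon gamma 2 of 20 rose, the myeloid factor Irf8 (1.91) and the class II activator Ciita (1.17), and Tgtp2 fell by 0.51, so that the share that rose was below that of all genes. In MlklAdi-KO visWAT, where 23.3% of all genes rose and 20.3% fell, 3 of 5 receptors rose and Ifngr1 fell (-0.43), 2 of 7 kinases and inhibitors rose and 1 fell, 6 of 16 sensors rose, and 4 of 20 genes driven by interferon gamma rose and 3 fell.

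**Figure D3:**
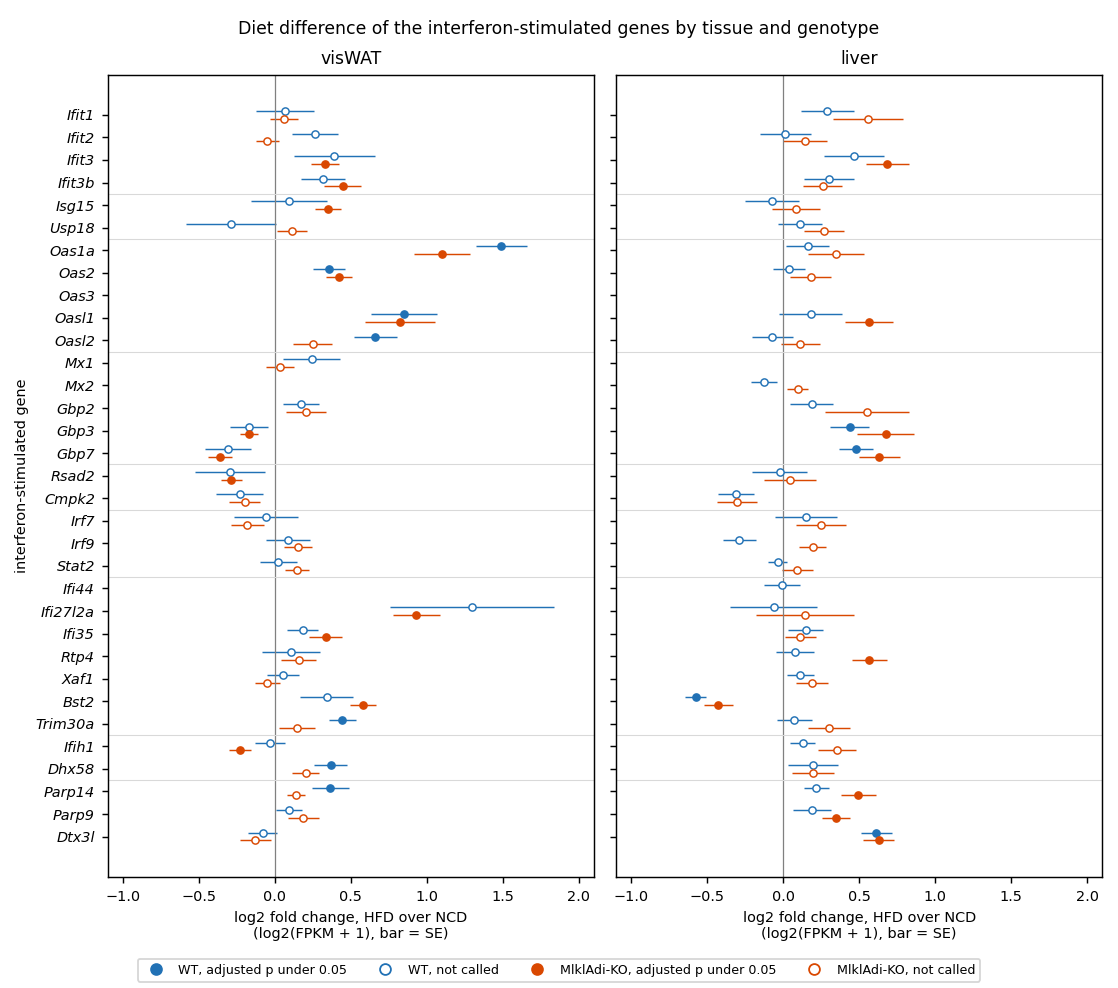
Diet difference of the 33 genes in visWAT and liver, as the log2 difference of HFD minus NCD on log2(FPKM + 1) with its SE, for WT and MlklAdi-KO mice; filled points have an adjusted p under 0.05 and genes below the filter have no point. In visWAT the Oas genes lie to the right, and in liver Bst2 lies to the left (-0.57 and -0.43) and Dtx3l, Gbp7 and Gbp3 to the right.

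In liver, Bst2 was lower and Dtx3l, Gbp7 and Gbp3 were higher on HFD in both genotypes. In WT mice these were the genes called, so that 3 of 31 genes rose (9.68%, against 13.2% of all genes) and 1 fell (3.23%, against 12.1%). In MlklAdi-KO mice 8 of 30 rose (26.7%, against 11.9%) and 1 fell (3.33%, against 10.3%). The 8 were Dtx3l, Gbp7 and Gbp3 again, with Ifit3, Rtp4, Oasl1, Parp14 and Parp9, and Bst2 again was the one lower. The median difference was 0.11 in WT and 0.25 in MlklAdi-KO mice, where 28 of the 30 had a positive difference. The share of all genes with a positive difference was not taken, so this count has no background. Both diet comparisons used separate mice, and whether they differed is given with the interaction of diet and genotype.

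Bst2 in the liver was 233.3, 242.9, 279.6 and 267.7 FPKM in WT mice on NCD and 168.2, 168.5, 159.7, 175.5 and 184.4 on HFD. All HFD mice lay below all NCD mice, with means of 255.9 ± 21.4 (SD, n = 4) and 171.3 ± 9.24 (SD, n = 5; log2 -0.57 ± 0.07 SE, adjusted p = 0.000493). In MlklAdi-KO mice it was 223.5, 210.3, 243.9 and 286.8 on NCD and 173.2, 174.4, 164.2, 180.7 and 199.6 on HFD, again without overlap (log2 -0.43 ± 0.10 SE, adjusted p = 0.0124).

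Dtx3l was 11.5, 10.4, 7.67 and 11.4 FPKM on NCD and 15.6, 15.6, 17.1, 16.0 and 15.8 on HFD in WT liver, without overlap (log2 0.61 ± 0.10 SE, adjusted p = 0.00275). In MlklAdi-KO liver it was 9.48, 11.8, 9.67 and 8.21 on NCD and 13.4, 16.8, 16.7, 14.9 and 16.5 on HFD (log2 0.63 ± 0.10 SE, adjusted p = 0.00264). The 2 genotypes gave nearly equal estimates. Gbp7 was 2.55, 2.29, 1.75 and 2.53 on NCD and 2.88, 3.94, 4.26, 3.12 and 3.72 on HFD in WT liver (log2 0.48 ± 0.11 SE, adjusted p = 0.0129), and 1.97, 3.48, 1.82 and 1.97 against 3.69, 3.85, 4.23, 4.59 and 3.88 in MlklAdi-KO liver (log2 0.63 ± 0.13 SE, adjusted p = 0.00862). Neither genotype's diets overlapped, although MlklAdi-KO mouse 179 lay far above its NCD group.

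Gbp3 was 1.67, 0.965, 1.71 and 2.07 FPKM on NCD and 2.02, 2.63, 2.43, 2.46 and 2.95 on HFD in WT liver (log2 0.44 ± 0.13 SE, adjusted p = 0.0348). In MlklAdi-KO liver it was 0.845, 1.36, 1.73 and 1.16 on NCD and 1.72, 3.93, 3.38, 2.04 and 2.34 on HFD (log2 0.67 ± 0.19 SE, adjusted p = 0.0279). In each genotype 1 HFD mouse reached the NCD range, and the call was lost without any one of mice 165, 180, 155, 161, 162 and 164 in WT and of 166, 199 and 153 in MlklAdi-KO liver.

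Ifit3 was higher in MlklAdi-KO liver on HFD, where it was 4.91, 8.15, 6.29, 6.72 and 6.06 FPKM, than on NCD, where it was 3.70, 4.71, 2.75 and 3.34, without overlap (log2 0.69 ± 0.14 SE, adjusted p = 0.0084). Rtp4, a receptor transporting protein, was 4.58, 4.05, 4.56 and 6.24 on NCD and 6.14, 8.07, 8.10, 7.98 and 7.83 on HFD, where mouse 151 lay just below the highest NCD mouse (log2 0.57 ± 0.11 SE, adjusted p = 0.00733). Oasl1 was 3.85, 5.31, 2.87 and 4.03 on NCD and 5.72, 5.93, 5.54, 5.81 and 8.98 on HFD, without overlap (log2 0.56 ± 0.16 SE, adjusted p = 0.0312), a call lost without mouse 166, 197 or 199.

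Parp14 was 3.54, 3.92, 3.06 and 2.73 FPKM on NCD and 4.09, 5.61, 4.40, 5.59 and 5.72 on HFD in MlklAdi-KO liver, without overlap (log2 0.49 ± 0.11 SE, adjusted p = 0.0134). With Parp9 (log2 0.35 ± 0.09 SE, adjusted p = 0.0208, lost without mouse 197 or 199) and Dtx3l, all 3 genes of ADP-ribosylation rose in these livers, and 1 of 3 in WT livers. Dtx3l and Parp9 are neighbours on chromosome 16 whose annotated ends overlap (35746881 to 35759521 on the minus strand and 35758840 to 35792975 on the plus strand), so that some reads could not be told apart without strand.

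In the liver 0 of the 5 macrophage markers tested were called for diet in either genotype. Of the Kupffer cell markers 1 of 3 rose in WT and 0 of 3 in MlklAdi-KO liver. The 1 plasmacytoid dendritic cell marker that passed the filter, Ly6d, was not called. It was 67.8 FPKM in WT mouse 182 on NCD and 24.0 in WT mouse 155 on HFD, and that list rests on this 1 gene. Liver macrophage sums were 36 to 46 FPKM in WT mice on NCD other than mouse 182, which had 119, and 41.0 to 60.9 on HFD. They were 40.6 to 63.1 in MlklAdi-KO mice on NCD and 31.0 to 45.7 on HFD other than mouse 152, which had 110. Cd68 was 3.13, 2.93, 10.4 and 3.50 FPKM in WT liver on NCD and 5.92, 5.26, 4.19, 5.29 and 6.00 on HFD, so that every HFD mouse lay above every NCD mouse but 182. The part of macrophages in the liver values was not tested. Adipocyte markers summed to at most 106 FPKM in liver, against at least 3970 in visWAT. In liver they were higher on HFD for 2 of 3 in WT and 1 of 3 in MlklAdi-KO mice. Cidec, the most abundant of them in WT liver on HFD, was 59.1 to 96.0 FPKM there and 5.35 to 21.8 on NCD. Adipoq was at most 2.70 in WT liver on HFD (mouse 155) and 0.0817 on NCD. Whether the Cidec values came from adipocytes was not tested. Of all genes tested 11.9% rose in MlklAdi-KO and 13.2% in WT liver. Of those driven mainly by interferon gamma 6 of 15 rose in MlklAdi-KO liver, among them the peptide transporter Tap1 (log2 0.64) and the immunity GTPases Igtp (0.53), Irgm2 (0.49) and Irgm1 (0.40), and 2 of 16 rose and 1 fell in WT liver, the latter being Irf1 (-0.49). Ifnar2 fell in both (-0.30 in WT and -0.27 in MlklAdi-KO mice), and 0 of 12 sensors moved in WT and 2 of 12 rose in MlklAdi-KO liver.

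Whether the diet acted unequally on the 2 tissues was tested in WT mice as an interaction. The diet difference, HFD minus NCD, was more positive in visWAT than in liver for Oas1a (by log2 1.33 ± 0.23 SE, adjusted p = 0.000234), Bst2 (0.92 ± 0.19 SE, adjusted p = 0.00139) and Oasl2 (0.73 ± 0.20 SE, adjusted p = 0.00763). It was more negative in visWAT than in liver for Gbp7 (-0.79 ± 0.20 SE, adjusted p = 0.00421), Dtx3l (-0.69 ± 0.15 SE, adjusted p = 0.00126) and Gbp3 (-0.61 ± 0.19 SE, adjusted p = 0.0159, lost without mouse 180). That is 3 higher and 3 lower of 30 genes, 10.0% each, below the 21.8% and 18.2% of all genes.

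Bst2 fell in WT liver (-0.57) and had a positive, uncalled difference in visWAT (0.34), and Gbp3 and Gbp7 rose in liver where their visWAT differences were -0.17 and -0.31 and not called. With the mouse as a block, since both tissues came from the same animals, 8 were called (5 higher and 3 lower), Irf9 and Oasl1 being added, and without mice 182 and 183 there were 7 (4 higher and 3 lower), Irf9 being added. With all libraries rescaled to the same FPKM sum, which put the median of all genes at 0.34, 8 were higher and 0 lower, and the calls of Dtx3l, Gbp3 and Gbp7 were lost.

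**Figure D4:**
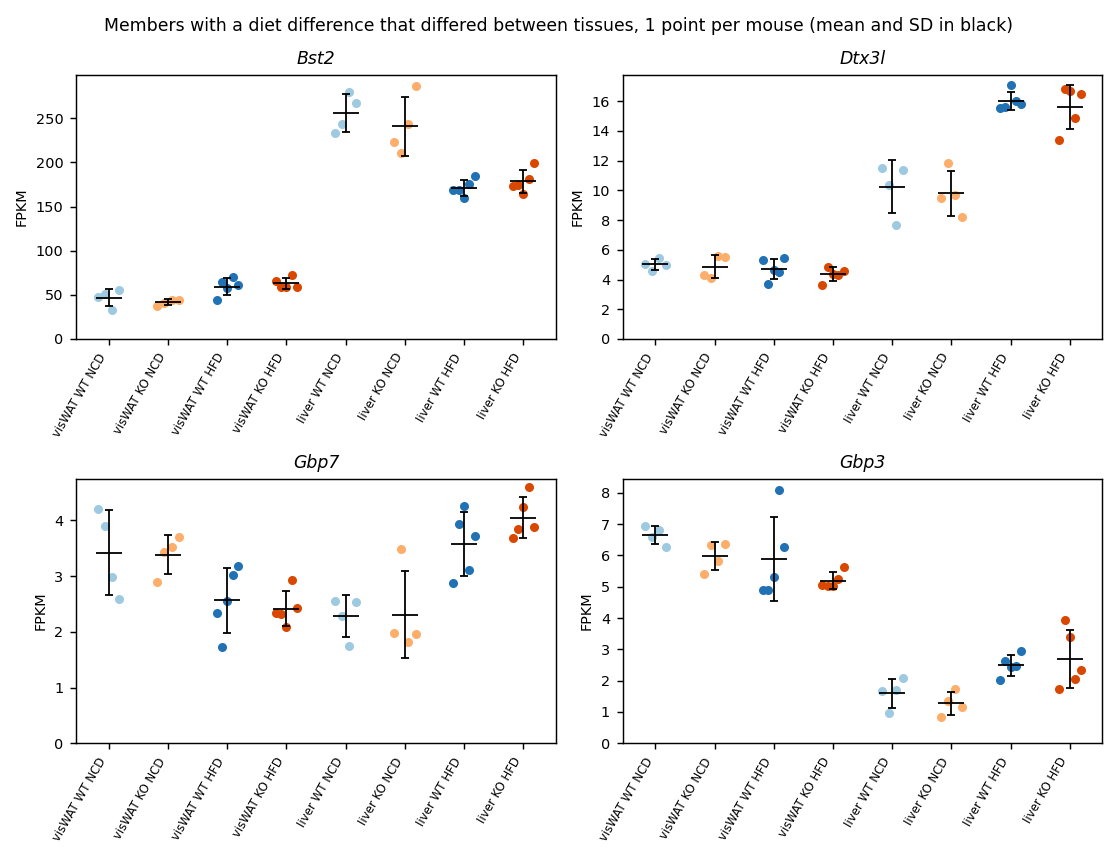
FPKM of Bst2, Dtx3l, Gbp7 and Gbp3 in the 8 groups of tissue, genotype and diet, with 1 point per mouse and the mean and SD of each group. In liver the HFD points of Bst2 (159.7 to 199.6) lie below all NCD points (210.3 to 286.8) and those of Dtx3l lie above them, while in visWAT Dtx3l overlaps between the diets.

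Between the genotypes, no interferon-stimulated gene passed the test in either tissue on either diet. On HFD, 0 of 30 genes were called in visWAT, where limma called 0.0215% of all genes. At an unadjusted p under 0.05 there were 6 (20%, against 21.5% of all genes), and both count tools, edgeR and DESeq2, also called 0 when run on whole reads recovered from the table. The median difference was -0.14, with 26 of 30 differences negative in MlklAdi-KO mice. The share of all genes with a negative difference was not taken, so this count has no background. The genes with the smallest p, Trim30a (log2 -0.31), Oasl2 (-0.44), Oas1a (-0.50), Parp14 (-0.21) and Ifit1 (-0.32), had lower means in MlklAdi-KO mice, and Ifi27l2a (0.31) a higher mean, all with adjusted p of 0.221 to 0.228. The groups of 5 overlapped for every one of the 33, against 1.42% of all genes with each MlklAdi-KO library above each WT library and 1.59% with each below.

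In the HFD values of Oasl2 the overlap came from both sides, since MlklAdi-KO mice 152 and 153 (3.76 and 3.35 FPKM) exceeded WT mouse 161 (3.29). For Trim30a, MlklAdi-KO mice 152 and 153 had 4.74 and 4.58 against 4.46 in WT mouse 154. Macrophage markers, as given above, were lowest in MlklAdi-KO mice 156 and 157, and 0 of these markers was called by genotype on HFD (median log2 difference -0.69). Their part in the genotype values was not tested.

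On NCD, 0 of 30 were called in visWAT by limma (0% of all genes), edgeR or DESeq2. At an unadjusted p under 0.05 were Stat2 and Isg15 (6.67%, against 3.75% of all genes), both lower in MlklAdi-KO mice. Stat2 was 4.60, 5.60, 4.67 and 6.20 FPKM in WT and 4.28, 3.90, 4.54 and 4.09 in MlklAdi-KO visWAT. These did not overlap (log2 -0.26 ± 0.10 SE, adjusted p = 0.916), and it was the 1 member with each MlklAdi-KO library below each WT library, as 0.59% of all genes were, while 1.87% were above. Isg15 was 5.68, 7.54, 6.56 and 11.0 in WT and 4.86, 4.44, 5.10 and 6.04 in MlklAdi-KO mice, with the highest value in WT mouse 183 (log2 -0.48 ± 0.18 SE, adjusted p = 0.916). Without mice 182 and 183, 0 of 29 were called and 3 had an unadjusted p under 0.05. With equal FPKM sums 0 genes had an unadjusted p under 0.05 there, the median of all genes being 0.29.

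In liver on HFD, 0 of 31 genes were called by limma (0.197% of all genes), and 6 had an unadjusted p under 0.05 (19.4%, against 12.6% of all genes). These were Rtp4, Irf9, Mx2, Ifih1, Parp14 and Oasl1, each with a higher mean in MlklAdi-KO mice. Irf9, the DNA-binding subunit of ISGF3, was 6.15, 6.02, 6.91, 6.28 and 6.52 FPKM in WT and 6.98, 7.39, 8.85, 8.83 and 7.66 in MlklAdi-KO liver. All MlklAdi-KO mice lay above all WT mice (log2 0.27 ± 0.07 SE, adjusted p = 0.158), which held for 1.38% of all genes, and 1.24% had the reverse. Rtp4 was 4.83, 4.88, 5.80, 6.09 and 6.36 in WT and 6.14, 8.07, 8.10, 7.98 and 7.83 in MlklAdi-KO liver, where mouse 151 lay within the WT range (log2 0.39 ± 0.09 SE, adjusted p = 0.129). DESeq2 called these 2 genes and edgeR called 0, and the 0.197% above is the share of limma alone. How many of all genes DESeq2 called is not given here.

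In liver on NCD, 0 of 30 were called by limma (0.00758% of all genes), edgeR or DESeq2, and Ifit1 alone had an unadjusted p under 0.05 (3.33%, against 4.35% of all genes). It was 1.93, 2.69, 2.47 and 2.27 FPKM in WT and 1.58, 1.77, 0.924 and 2.12 in MlklAdi-KO mice, which overlapped (log2 -0.38 ± 0.15 SE, adjusted p = 0.996). No member separated the genotypes there, against 1.39% of all genes above and 1.4% below.

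The interaction asks whether the diet difference depended on the genotype. In visWAT 0 of 30 genes were called (0% of all genes) and 0 had an unadjusted p under 0.05 in limma (against 13.2% of all genes), and DESeq2 and edgeR also called 0. In liver 0 of 31 were called by limma (0.0151% of all genes), edgeR or DESeq2, and 3 had an unadjusted p under 0.05 (9.68%, against 6.12% of all genes). These were Irf9 (log2 0.48 ± 0.14 SE, adjusted p = 0.387), Rtp4 (0.49 ± 0.18 SE, adjusted p = 0.588) and Mx2 (0.22 ± 0.10 SE, adjusted p = 0.81). The diet difference of Irf9 was -0.29 in WT and 0.19 in MlklAdi-KO liver and that of Mx2 -0.13 and 0.10, none of them called, while that of Rtp4 was 0.08, not called, and 0.57. Without mice 182 and 183, 0 genes were called in visWAT as well. A gene called in 1 genotype's diet comparison and not in the other's was therefore not shown to differ between genotypes. Of the pathway lists 0 genes were called in the genotype and interaction comparisons.

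Mice differed among themselves across many of these genes at once. In visWAT of WT mice on HFD, mouse 164 was highest of 5 in 18 genes and mouse 162 in 13, and neither was lowest in any, whereas mouse 154 was lowest in 17 and highest in 0. Ifit3 was 7.12, 9.58, 6.89, 17.2 and 14.7 FPKM and Irf7 4.74, 5.26, 4.86, 9.95 and 8.16 in these 5 mice. The liver of mouse 164 was likewise highest in 16 genes and that of mouse 154 lowest in 20. In MlklAdi-KO livers on HFD, mouse 151 was lowest in 24 of 33 genes and mouse 152 was highest in 13, among them Gbp2 at 5.74 FPKM, where the other 4 had 1.22 to 2.09. The liver library of mouse 152 also had a macrophage marker sum of 110 FPKM against 31.0 to 45.7 in the other 4. In the visWAT of MlklAdi-KO mice on HFD the highest values were spread over all 5 mice (4 to 9 genes each). How often each mouse was highest or lowest over all genes was not taken, so these counts have no background.

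**Figure D5:**
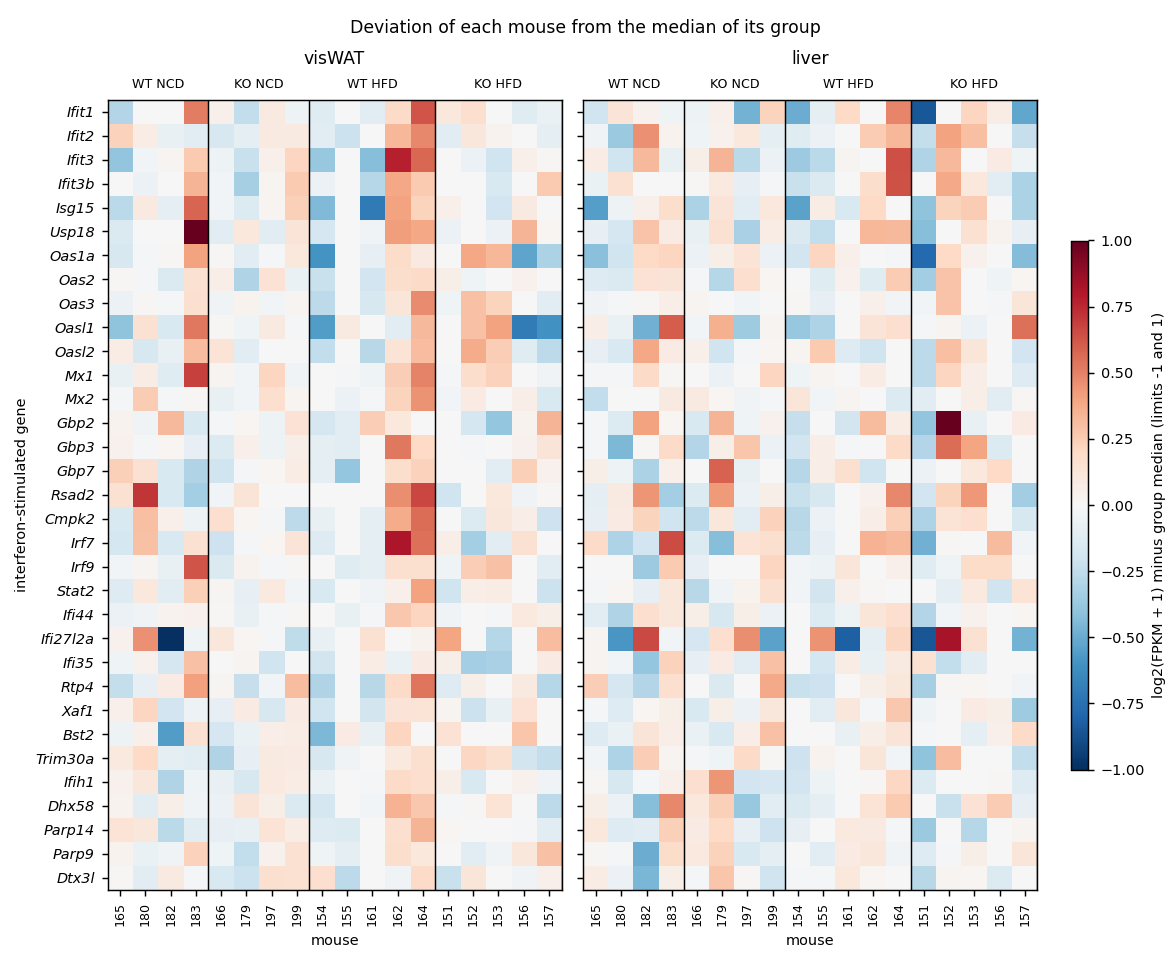
Deviation of each mouse from the median of its group for the 33 genes in visWAT and liver, as log2(FPKM + 1) minus the group median, with the colour scale ending at -1 and 1. WT mice 162 and 164 on HFD are red across most rows of visWAT, and MlklAdi-KO mouse 151 on HFD is blue in most rows of liver, being the lowest of its group in 24.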

How the data were processed

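PolyA-selected RNA was sequenced in paired ends. Per the study's methods, fastp trimming was followed by HISAT2 alignment against mm39, and featureCounts 1.5.0-p3 gave reads per gene; the annotation release, the strand setting and the treatment of reads shared by genes are not given in the sources used here. The authors deposited FPKM for every gene and library, with gene lengths, and raw counts for the genes of their own genotype comparisons. Columns of their fold changes, p-values and enrichments were not used, nor were 72 columns of per-sample values that repeat the table. The deposited counts served to recover the library size behind each FPKM column, after which 100% of the FPKM values gave whole reads within 0.05 reads.

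The members and gene lists were chosen with earlier results of these data known. Groups were taken from the labels. The test was limma 3.58.1 (R 4.3.3, with a mean trend) on log2(FPKM + 1), fitted on all genes with a mean of at least 0.5 FPKM in the libraries compared, with Benjamini-Hochberg adjustment over all of them and a threshold of 0.05. It was tested on simulated data. Fold changes on this scale understate those of low genes. Diet comparisons of the 2 tissues share mice, and the diet and genotype comparisons of a tissue share groups. The alternatives were a pseudocount of 0.1, other filters, equal FPKM sums, edgeR 4.0.16 and DESeq2 1.42.0 on the recovered reads, all 4 groups in the fit, each mouse left out, and the mouse as a replicate block across tissues. Leaving out both WT mice 182 and 183 was chosen after seeing the data. The tissues of a mouse are paired by its number, and the correlation of their deviations from the group means was -0.05 to 0.22, over 0.1 in 2 of 18 mice. Replicates of a group differed by more than sampling noise (chi-square per gene of at least 9.82).

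Values in every mouse are given for at most 8 called genes per comparison with the largest differences or, with fewer than 4 called, for those of the smallest p, and of each pathway list at most 4 genes are named. Genes named outside this rule were chosen after their values were seen. Promoters come from the RefSeq table of GRCm38.p6 and were placed on GRCm39 by exact match.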

Additional observations from a re-analysis of the deposited data

Results flagged for a closer look

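Within groups of 4 or 5 mice, 244 sets of values were examined for a mouse far from the others, and 11 stood out (4.51%), where chance marks about 1 in 20. In the visWAT of WT mice on NCD, mouse 183 was far above the others in Usp18 (5.08 FPKM), Irf9 (7.38) and Ifit3b (2.40); this is the library with seminal vesicle and epididymis transcripts. In visWAT of MlklAdi-KO mice, mouse 197 on NCD was low in Ifi35 (10.9 FPKM), and on HFD mouse 156 was high in Usp18 (1.71) and mouse 157 low in Parp14 (3.71). In MlklAdi-KO liver, mouse 179 on NCD was high in Gbp7 (3.48 FPKM), and on HFD mouse 157 was high in Oasl1 (8.98), mouse 152 high in Gbp2 (5.74) and mouse 151 low in Rtp4 (6.14) and Ifi44 (0.339).

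The diet difference of WT mice differed between visWAT and liver, by the interaction test, for Oas1a (log2 1.33), Bst2 (0.92) and Oasl2 (0.73), more positive in visWAT, and for Gbp7 (-0.79), Dtx3l (-0.69) and Gbp3 (-0.61), more positive in liver. For Bst2 the signs were opposite, with a called fall in liver and an uncalled positive difference in visWAT.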

How the results depend on the processing

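Of 66 called results of single genes, 1338 alternative values were computed; 1251 kept their direction and call, 80 lost the call and 7 reversed. The 7 reversals were in the comparison of the tissues with libraries rescaled to the same FPKM sum, where the visWAT minus liver difference became 0.50 for Isg15, 0.42 for Ifit1, 0.37 for Irf7, 0.34 for Irf9, 0.23 for Dhx58, 0.42 for Parp9 and 0.64 for Rtp4. That scaling gave 14 called genes for the diet in WT visWAT, where the median of all genes went from -0.01 to 0.34, and no filter on low values gave 4. With all 4 groups in the fit, 8 were called for the diet in MlklAdi-KO visWAT (Ifi27l2a, Ifit3, Isg15, Rsad2 and Gbp3 lost). DESeq2 called 2 between the genotypes in liver on HFD. Leaving out 1 mouse at a time gave 4 to 10 called genes for the diet in WT visWAT (4 without WT mouse 180 on NCD or WT mouse 164 on HFD), 10 to 14 in MlklAdi-KO visWAT, 3 to 5 in WT liver, 6 to 11 in MlklAdi-KO liver, 25 to 27 between the tissues, 6 to 7 for the diet by tissue, and 0 for genotype and its interaction with diet. The cause of these moves was not tested. Equal FPKM sums also put the median of all genes at 0.29 between the genotypes in visWAT on NCD and at -0.35 in their interaction with diet. Between the tissues, the calls of Ifit1 and Rtp4 were also lost without 1 of several mice (180, 179, 199, 161, 153 or 156 for Ifit1, and 165, 161 or 157 for Rtp4). With the mouse as a replicate block, 27 genes were called between the tissues and 8 for the diet by tissue. Counts behind single values ran from 5 reads (Oas3) to 38534 (Ifi27l2a), and groups of 4 and 5 mice limit what the genotype comparisons can show.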
